A study of Homo sapiens with 6 samples.

Results

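The 10 genes examined here mark stem cells of the intestinal crypt or of colorectal tumours, and were followed in ChIP-seq of HCT116 cells, an established human colorectal cancer line. They are LGR5, ASCL2, OLFM4, SMOC2, PROM1, ALDH1A1, CD44, EPHB2, SOX9 and BMI1. The genes were chosen by name as stem cell markers, but with earlier results of these data known. All 10 were found among the 20162 protein-coding genes of the annotation. The 2 cell populations were HCT116/Scrsh, which carries a scramble shRNA and is labelled Con, and HCT116/ABsh-1, which carries 1 shRNA aimed at both KDM3A and KDM3B and is labelled KD. They are called Scrsh and ABsh-1 cells from here on. The study's methods describe shRNA, whereas the sample labels describe siRNA transfection, so the type of silencing RNA is not certain from the sources. Each population gave 1 library with an antibody to KDM3B, 1 with an antibody to dimethylated lysine 9 of histone H3 (H3K9me2), and 1 input, and the 4 ChIP libraries each have 1 list of bound regions. With 1 library per antibody and population there was no replicate, no test between the populations was made, and the knockdown itself could not be checked in lists of regions. The paper reports efficient knockdown of both proteins by ABsh-1 in HCT116 cells, judged by western blot.

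Stem cells at the base of the intestinal crypt divide under Wnt signals from their niche, and many of their markers are targets of β-catenin and its TCF/LEF partners. The same genes are used to find the cells of a colorectal tumour that can found a new one. KDM3A and KDM3B are demethylases that remove methyl groups from mono- and dimethylated H3K9, a mark found in silent chromatin, so the comparison asks whether these genes carried KDM3B in the control cells and H3K9me2 regions after the knockdown.

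The 4 lists differ in length, and this bears on every count. They hold 17638 KDM3B regions in Scrsh cells, 8046 in ABsh-1 cells, and 11645 and 88855 H3K9me2 regions in the same order. Positions are those of hg19, on a grid of 100 bp, and the smallest regions are 1 window of 100 bp. Such single windows make up 53.8%, 61.3%, 72.9% and 41.3% of the lists. Each region has a score whose meaning the sources used here do not state, and which was used only to rank regions inside a list. It rises with width, so ranks are also given among regions of the same width. Where scores of regions from different lists are printed together, they describe each region and cannot be compared across lists. The lists give no read numbers, so the depth is unknown, and a gene without a region is one where none was detectable at that depth.

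Within 5 kb of any annotated transcription start site (TSS), KDM3B regions were found for 4 of the 10 genes in Scrsh cells and for 1 in ABsh-1 cells. The 4 were ALDH1A1, CD44, SOX9 and BMI1, and the 1 was CD44. Among all protein-coding genes the shares were 35% and 19.2%. For H3K9me2 the order was the opposite, with 1 gene (SOX9) in Scrsh cells and 5 genes (ASCL2, SMOC2, PROM1, EPHB2 and SOX9) in ABsh-1 cells, beside 10.2% and 49.3% of all protein-coding genes. ASCL2, SMOC2, PROM1 and EPHB2 had an H3K9me2 region in ABsh-1 cells and none in Scrsh cells, which was also so for 40.2% of all protein-coding genes. ALDH1A1, SOX9 and BMI1 had a KDM3B region in Scrsh cells alone, as did 20% of all. None of the 10 genes showed both patterns together in this window, which 8.55% of all protein-coding genes did. LGR5 and OLFM4 had no region of any list there, a state shared by 31.6% of all. With 10 genes, 1 gene is 10% of the set, and these shares lie near those of the whole annotation.

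In the wider window the populations differed less in the number of these genes with a region. Within 50 kb of a TSS, 6 and 5 genes had a KDM3B region in Scrsh and ABsh-1 cells (71.8% and 50.6% of all protein-coding genes). For H3K9me2 the counts were 5 and 6 genes (37.3% and 75.8%). The amount of H3K9me2 still differed widely there, with 12 regions and 1800 covered bases in Scrsh cells. In ABsh-1 cells there were 151 regions and 43069 covered bases. Per kb of window these were 1.07 and 25.5 bases, beside 0.795 and 23.4 over all protein-coding genes, so the whole annotation differed in the same way. For KDM3B the numbers were 14 regions and 2000 bases in Scrsh cells, and 8 regions and 1200 bases in ABsh-1 cells. Per kb these were 1.19 and 0.712 bases, beside 2.66 and 1.1 over all protein-coding genes. In the gene body, from the outermost start to the outermost end, PROM1, CD44, EPHB2 and SOX9 had a KDM3B region in Scrsh cells (34.3% of all genes) and PROM1 and CD44 in ABsh-1 cells (19.1%). EPHB2 and SOX9 had a body region of KDM3B in Scrsh cells alone, beside 19.5% of all genes. No gene had an H3K9me2 region in its body in Scrsh cells (15.9% of all), and ASCL2, SMOC2, PROM1, EPHB2 and SOX9 had one in ABsh-1 cells (51.2% of all). All 5 of these were therefore present in ABsh-1 cells alone, as for 37.4% of all genes.

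**Figure D1:**
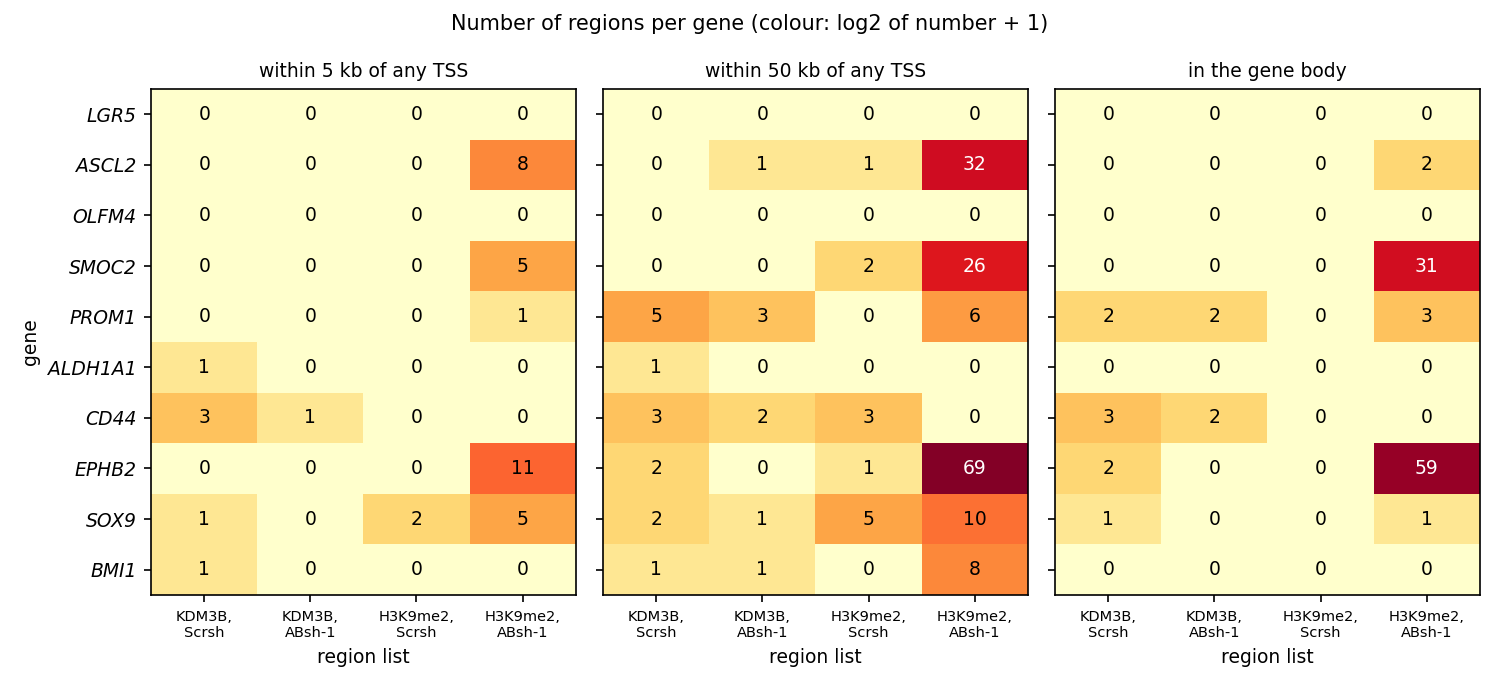
Number of regions of each of the 10 genes (rows) in the 4 lists (columns) for 3 windows, with the number printed in each cell and the colour giving log2 of the number plus 1. EPHB2 has 59 and SMOC2 31 H3K9me2 regions in the gene body in ABsh-1 cells and 0 in Scrsh cells, while the LGR5 and OLFM4 rows are 0 throughout.

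The KDM3B lists cover the genes thinly. Together the 10 genes had 14 KDM3B regions in Scrsh cells and 8 in ABsh-1 cells within 50 kb or in the body, and 10 and 5 of them were single windows. The sequences of 8 of the 14 are shown first, which lie near the starts or in the introns of these genes or were found in both populations. The SOX9 window at the TSS and the BMI1 region, which hold exon bases outside coding sequence, also lie near starts but are not shown. All are the plus strand of hg19. In the PROM1 pair, capitals mark the bases that were also in a region of ABsh-1 cells.

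PROM1 intron 13, chr4:16003001-16003300: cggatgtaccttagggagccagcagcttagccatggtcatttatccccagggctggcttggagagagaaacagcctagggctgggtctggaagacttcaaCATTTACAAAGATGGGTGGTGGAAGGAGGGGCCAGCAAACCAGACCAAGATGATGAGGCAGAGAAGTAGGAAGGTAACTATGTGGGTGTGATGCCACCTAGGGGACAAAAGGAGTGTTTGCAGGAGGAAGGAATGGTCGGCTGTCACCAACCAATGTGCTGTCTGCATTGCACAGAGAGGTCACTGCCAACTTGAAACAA

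PROM1 downstream, chr4:15957901-15958100: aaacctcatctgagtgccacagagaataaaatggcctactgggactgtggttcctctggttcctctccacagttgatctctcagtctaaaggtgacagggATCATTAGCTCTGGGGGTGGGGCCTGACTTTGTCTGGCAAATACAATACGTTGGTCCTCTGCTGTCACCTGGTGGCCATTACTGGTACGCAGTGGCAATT

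In the next sequences, capitals mark CpG dinucleotides, and none overlaps a KDM3B region of ABsh-1 cells.

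CD44 intron 1, chr11:35161601-35161700: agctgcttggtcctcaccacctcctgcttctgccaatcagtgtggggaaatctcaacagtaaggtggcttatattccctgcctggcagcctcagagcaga

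CD44 intron 1, chr11:35163301-35163400: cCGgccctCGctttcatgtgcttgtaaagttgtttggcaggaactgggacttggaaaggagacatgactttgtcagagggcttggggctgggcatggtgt

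CD44 intron 1, chr11:35165801-35165900: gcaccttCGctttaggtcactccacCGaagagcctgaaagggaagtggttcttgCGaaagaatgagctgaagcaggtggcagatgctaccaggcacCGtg

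ALDH1A1 upstream, chr9:75697001-75697200: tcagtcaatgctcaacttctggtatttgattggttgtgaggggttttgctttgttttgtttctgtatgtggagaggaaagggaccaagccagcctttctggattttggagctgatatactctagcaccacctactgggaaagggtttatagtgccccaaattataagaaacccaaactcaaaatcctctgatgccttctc

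EPHB2 intron 1, chr1:23074101-23074200: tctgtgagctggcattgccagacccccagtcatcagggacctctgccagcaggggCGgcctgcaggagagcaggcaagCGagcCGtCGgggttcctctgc

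EPHB2 intron 3, chr1:23153501-23153600: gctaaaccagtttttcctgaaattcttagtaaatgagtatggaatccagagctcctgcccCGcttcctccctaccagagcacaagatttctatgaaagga

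PROM1 encodes prominin-1, also known as CD133, a membrane glycoprotein used to sort colorectal cancer stem cells. It is the gene with KDM3B regions at the same place in both populations. The intron 13 region (300 bp, score 64) shared 200 bp with a 300-bp region of ABsh-1 cells. Its score was at or above those of 86.2% of its list and 59.1% of the list's regions of that width. The score of the ABsh-1 region was 50, at or above those of 88.2% of that list and 53% of its regions of that width. A region of 200 bp downstream of the gene (score 60) shared 100 bp with a 200-bp region of ABsh-1 cells (score 44). These 2 places are the only ones where KDM3B regions of the 2 populations overlapped for any of the 10 genes, so 2 of the 14 regions of Scrsh cells (14.3%) and 2 of the 8 of ABsh-1 cells (25%) were shared. Over the whole lists the shares were 25.7% and 56.4%. Neither place is near a promoter of PROM1. The intron 13 region lies 82.5 kb into the gene from the canonical TSS and 15.5 kb from the nearest annotated TSS, and the other lies 15.6 kb from one. Scrsh cells had 3 further PROM1 regions, all single windows with scores of 9, 10 and 14, of which 1 lay in FGFBP1 and 1 in FGFBP2. ABsh-1 cells had 1 further region, of 200 bp, in intron 5.

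CD44, the hyaluronan receptor and a Wnt target, had 3 KDM3B windows in intron 1 in Scrsh cells, with centres at 932, 2632 and 5132 bp from the canonical TSS. As many within 5 kb were found for 2.79% of protein-coding genes, although CD44 has 35 annotated TSSs and the median gene has 5. Their scores of 13, 9 and 14 were at or above those of 21.2%, 6.64% and 24.7% of the list. Among its single windows these shares were 39.3%, 12.3% and 45.8%. In ABsh-1 cells the gene had 2 other windows, 1 with its centre 68 bp upstream of the canonical TSS (score 9) and 1 at 27.7 kb in intron 1 (score 12). None of the windows of the 2 populations overlapped. CD44 thus kept a KDM3B region within 5 kb in both populations, but at different positions.

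SOX9, a transcription factor of the HMG-box family expressed in crypt progenitors, had a KDM3B window over its single annotated TSS in Scrsh cells, with its centre at −11 bp (score 15). The ABsh-1 cells list had no region there and its nearest was 43.5 kb from the TSS. BMI1, a subunit of Polycomb repressive complex 1, had a 300-bp region (score 34) whose centre lay 4.48 kb upstream of the canonical TSS. That region lies in COMMD3 and in the read-through gene COMMD3-BMI1, whose starts are at 22605315 and 22605317 on chromosome 10, so the lists cannot tell which gene it belongs to. In ABsh-1 cells the nearest KDM3B region to BMI1 was 1 window at 12.5 kb from a TSS. ALDH1A1, a retinaldehyde dehydrogenase and 1 of the enzymes behind the aldehyde dehydrogenase assay for stem-like cells, had 1 region of 200 bp (score 35) with no CpG in its sequence. It lay 1.74 kb upstream of the outermost annotated TSS but 129 kb upstream of the canonical one, and with canonical TSSs alone ALDH1A1 had no KDM3B region within 5 kb. EPHB2, a receptor for ephrin-B ligands that positions cells along the crypt, had 2 single windows of score 11 deep in introns 1 and 3, at 36.8 and 116 kb from its canonical TSS, and none in ABsh-1 cells. ASCL2, a Wnt-responsive transcription factor of crypt stem cells, had no KDM3B region within 50 kb in Scrsh cells and 1 window (score 8) at 29 kb in ABsh-1 cells, inside C11orf21.

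**Figure D2:**
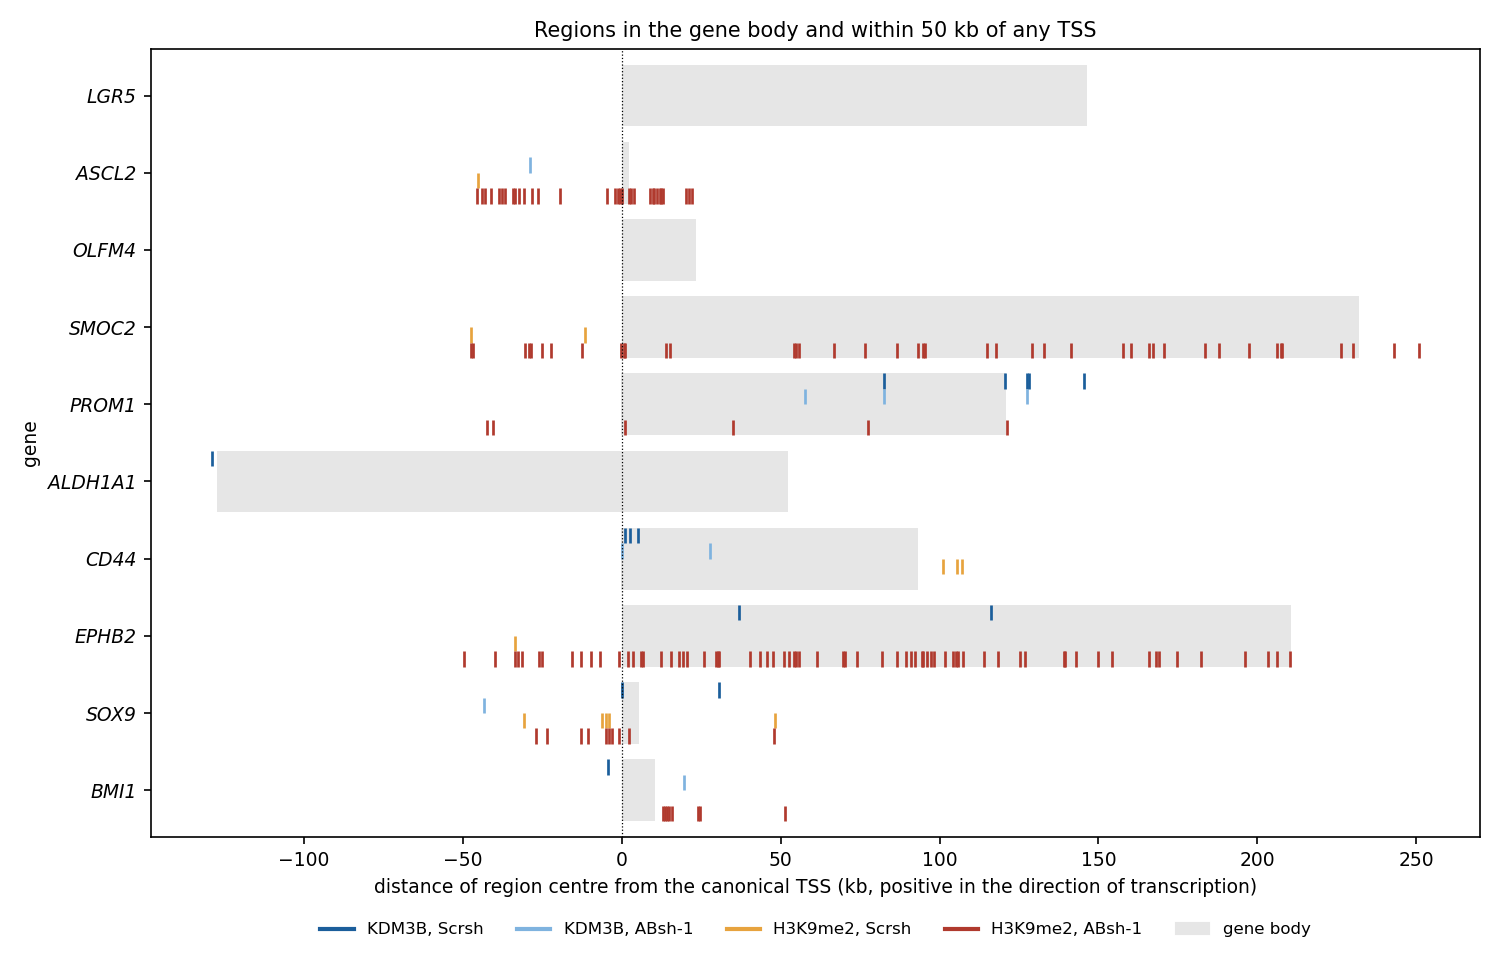
Centres of the regions found within 50 kb of any TSS or in the gene body, as distance in kb from the canonical TSS of each gene in the direction of transcription, with the gene body in grey and 1 colour per list. Marks show position only and not width. H3K9me2 marks of ABsh-1 cells run along EPHB2, SMOC2 and the surroundings of ASCL2, and LGR5 and OLFM4 have none of any list.

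H3K9me2 in ABsh-1 cells was spread unevenly over the 10 genes. Of 169 regions, EPHB2 had 71, SMOC2 42, ASCL2 32, SOX9 10, BMI1 8 and PROM1 6, so that EPHB2, SMOC2 and ASCL2 held 85.8%. LGR5, OLFM4, ALDH1A1 and CD44 had none. In Scrsh cells the same windows held 12 H3K9me2 regions in all, 5 at SOX9, 3 at CD44, 2 at SMOC2 and 1 each at ASCL2 and EPHB2. Of the 12, 5 (41.7%) overlapped a region of ABsh-1 cells, beside 35.4% of the whole list, and the same 5 were 2.96% of the 169, beside 4.47% of the whole ABsh-1 cells list. The following pieces show 3 such places on the plus strand of hg19. The whole run lay in a region of ABsh-1 cells, and capitals mark the bases that were also in a region of Scrsh cells.

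SMOC2 upstream, chr6:168794101-168794400: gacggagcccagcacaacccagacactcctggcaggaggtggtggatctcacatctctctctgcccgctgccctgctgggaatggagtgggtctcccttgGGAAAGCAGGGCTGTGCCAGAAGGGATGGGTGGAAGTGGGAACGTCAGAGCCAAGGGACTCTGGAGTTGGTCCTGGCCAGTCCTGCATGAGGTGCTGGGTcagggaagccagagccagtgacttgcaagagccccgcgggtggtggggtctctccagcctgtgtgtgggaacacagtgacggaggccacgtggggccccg

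EPHB2 upstream, chr1:23003401-23003700: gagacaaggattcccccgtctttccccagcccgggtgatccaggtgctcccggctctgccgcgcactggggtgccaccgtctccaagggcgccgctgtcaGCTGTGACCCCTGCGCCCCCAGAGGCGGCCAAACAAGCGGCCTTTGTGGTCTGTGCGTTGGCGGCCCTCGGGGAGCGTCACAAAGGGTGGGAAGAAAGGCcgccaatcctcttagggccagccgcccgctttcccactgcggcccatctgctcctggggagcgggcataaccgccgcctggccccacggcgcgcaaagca

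SOX9 upstream, chr17:70112901-70113200: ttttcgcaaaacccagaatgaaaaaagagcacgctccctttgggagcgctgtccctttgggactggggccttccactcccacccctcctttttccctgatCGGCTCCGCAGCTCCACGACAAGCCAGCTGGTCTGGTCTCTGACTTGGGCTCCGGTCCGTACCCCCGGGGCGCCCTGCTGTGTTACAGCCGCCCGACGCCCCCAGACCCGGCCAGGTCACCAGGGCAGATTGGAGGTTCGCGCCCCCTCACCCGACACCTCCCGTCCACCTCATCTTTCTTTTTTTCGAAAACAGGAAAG

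A further 4 regions show sequences of differing base composition, with CpG dinucleotides in capitals. The ASCL2, SMOC2 and BMI1 regions were found in ABsh-1 cells and the CD44 region in Scrsh cells.

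ASCL2 upstream, chr11:2292101-2292400: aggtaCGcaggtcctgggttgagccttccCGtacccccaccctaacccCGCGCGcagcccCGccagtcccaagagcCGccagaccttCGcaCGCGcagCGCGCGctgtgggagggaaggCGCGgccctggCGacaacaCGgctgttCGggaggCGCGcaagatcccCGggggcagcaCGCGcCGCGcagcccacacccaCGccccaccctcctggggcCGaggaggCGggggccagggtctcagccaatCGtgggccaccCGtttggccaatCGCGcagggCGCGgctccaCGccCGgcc

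SMOC2 intron 1, chr6:168842901-168843100: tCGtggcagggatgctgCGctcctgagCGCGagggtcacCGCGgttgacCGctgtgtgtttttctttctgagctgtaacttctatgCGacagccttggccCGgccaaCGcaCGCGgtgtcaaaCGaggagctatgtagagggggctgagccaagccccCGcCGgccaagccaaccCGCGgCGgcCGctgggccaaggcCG

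BMI1 downstream, chr10:22623001-22623200: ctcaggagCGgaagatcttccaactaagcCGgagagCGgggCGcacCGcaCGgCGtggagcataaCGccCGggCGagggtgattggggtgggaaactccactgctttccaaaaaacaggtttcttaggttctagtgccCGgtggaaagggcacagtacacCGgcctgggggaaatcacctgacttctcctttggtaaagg

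CD44 downstream, chr11:35261801-35261900: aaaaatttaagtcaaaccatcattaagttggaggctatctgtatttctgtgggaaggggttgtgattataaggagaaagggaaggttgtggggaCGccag

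The ASCL2 region has 36 CpGs in 300 bp and 74.7% GC, the SMOC2 region 20 in 200 bp and the BMI1 region 12 in 200 bp. The CD44 region has 1 in 100 bp and 42% GC. The median GC content of the H3K9me2 regions was 62% for the 169 regions of these genes in ABsh-1 cells and 51.2% for the 12 in Scrsh cells, close to the 62.4% and 52.7% of the whole lists.

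EPHB2 had the most H3K9me2 regions. Its body of 211 kb held 59 regions and 14800 covered bases in ABsh-1 cells, which is 7.03% of its length, and 0 in Scrsh cells. Only 88 protein-coding genes (0.436%) had as many body regions. Per length it stood out less, since its 70.3 covered bases per kb were at or above the values of 84.1% of protein-coding genes. The regions ran along the whole gene. There were 52 centred in introns, 4 in coding exons and 3 in the 3′ UTR, and each of 10 equal parts of the body held between 3 and 12 of them. The fifth part had the most covered bases (3200) and the ninth the fewest (400). The widest region (1000 bp, score 125) lay in intron 1 at 51.2 kb, and the highest score (184) belonged to an 800-bp region of intron 3. A region of 700 bp (score 127) was centred in coding exon 3. Within 5 kb of a TSS the gene had 11 regions and 2500 covered bases, and 4.07% of genes had as many regions. Its joined window there was 40.1 kb long, beside a median of 19.3 kb. Per length its 62.3 covered bases per kb were at or above the values of 82.9% of genes.

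SMOC2, which encodes a secreted calcium-binding matrix protein, was the second gene with regions along its body. It had 31 body regions and 7300 covered bases (3.14% of 232 kb) in ABsh-1 cells and 0 in Scrsh cells, and 312 protein-coding genes (1.55%) had as many. Its 31.4 covered bases per kb were at or above the values of 76.1% of genes. The second of 10 equal parts of the body held none, and the other parts held between 400 and 1500 covered bases. The widest region (1000 bp, score 147) lay in intron 2 at 76.5 kb. Within 5 kb of its TSSs it had 5 regions and 600 bases, or 29.7 per kb, and 15.2% of genes had as many regions. Upstream, a window of Scrsh cells at 47.6 kb (score 13) fell inside a 500-bp region of ABsh-1 cells (score 122). Another, at 11.5 kb (score 12), had no overlap.

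PROM1 showed a different form. Its body held 3 H3K9me2 regions in ABsh-1 cells, and 1 of them carried 1200 of the 1400 covered bases. This region (chr4:16084101-16085300, score 228) covers an annotated TSS, has 94 CpGs, and is centred 946 bp downstream of the canonical TSS. Its score was at or above those of 97% of the list and 54.7% of the regions of that width. Scrsh cells had no H3K9me2 region within 50 kb of any PROM1 TSS, and the nearest was at 73 kb. No KDM3B region of either population lay within 5 kb of a PROM1 TSS.

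ASCL2 and SOX9 are short genes with H3K9me2 regions around their starts. ASCL2, of 2.09 kb, had 8 regions and 1900 covered bases (19%) within 5 kb of its TSS in ABsh-1 cells and none in Scrsh cells. One of the 8 lay over the 5′ UTR with its centre 68 bp from the TSS (100 bp, score 17), and the widest 2 were of 500 bp. Its count within 50 kb, 32 regions, included 3 in C11orf21 and 10 in TSPAN32, neighbours whose TSSs lie 31.3 and 31.4 kb away. The widest of them, of 3000 bp with a score of 578, lay in TSPAN32. That score was at or above those of 99.8% of the list and 50% of the 16 regions of that width, itself included. A window of Scrsh cells in TSPAN32 (score 12) fell inside a 1600-bp region of ABsh-1 cells (score 336).

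SOX9 was the only 1 of the 10 genes with H3K9me2 regions within 5 kb in both populations. Of all protein-coding genes, 49.3% had one in ABsh-1 cells, and 40.2% had one there but none in Scrsh cells. The remainder of the 49.3% had regions in both populations, and 1 gene of 10 lies near that share. At SOX9, Scrsh cells had 2 within 5 kb, with 240 bases inside the window (2.4%), and ABsh-1 cells had 5, with 2740 bases (27.4%). Both regions of Scrsh cells, of 100 bp (score 13) and 200 bp (score 21), fell inside regions of ABsh-1 cells of 500 bp (score 132) and 400 bp (score 88). The widest region in ABsh-1 cells (1000 bp, score 269) lay in the gene, centred in intron 2 at 2.24 kb. Its score was at or above those of 98% of the list and 94.3% of the list's regions of that width. The nearest H3K9me2 region of ABsh-1 cells to the KDM3B window at the SOX9 TSS was 700 bp away, and the 2 did not overlap. SOX9 lies within the long noncoding gene SOX9-AS1, and the lists have no strand, so the regions cannot be assigned to one or the other.

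BMI1 and CD44 had H3K9me2 regions only at a distance. BMI1 had 8 in ABsh-1 cells, from 13.1 to 51.4 kb downstream of its canonical TSS, and the nearest was 6.13 kb from any of its TSSs. The widest was of 500 bp (score 117), and 2 of the 8 lay in SPAG6. CD44 had 3 in Scrsh cells, between 101 and 107 kb from the canonical TSS and beyond the end of the gene, of 100, 100 and 300 bp with scores of 9, 10 and 36. In ABsh-1 cells the nearest H3K9me2 region was 197 kb from any CD44 TSS, a distance reached or passed by 8.48% of protein-coding genes. CD44 was the only 1 of the 10 with H3K9me2 regions within 50 kb in Scrsh cells and none in ABsh-1 cells. The share of all protein-coding genes with this pattern was not counted, so it cannot be called unusual.

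LGR5, the receptor for R-spondins and the reference marker of crypt stem cells, and OLFM4, a secreted glycoprotein of the same cells, had no region of any list within 50 kb of a TSS or in the body, as for 10.2% of protein-coding genes. The nearest regions to an LGR5 TSS were at 92.7 kb (KDM3B, Scrsh cells), 269 kb (KDM3B, ABsh-1 cells), 380 kb (H3K9me2, Scrsh cells) and 655 kb (H3K9me2, ABsh-1 cells). Only 1.96% of protein-coding genes were as far from an H3K9me2 region of ABsh-1 cells as LGR5, and the median gene was 5.37 kb from one. For OLFM4 the same 4 distances were 60.4, 376, 182 and 173 kb, and 9.65% of genes were as far in the last list. ALDH1A1 had no H3K9me2 region within 50 kb in either population, and was 58.4 kb from one in Scrsh cells and 219 kb in ABsh-1 cells.

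The places of KDM3B in Scrsh cells and of H3K9me2 in ABsh-1 cells were set beside each other for the 10 genes. None of the 14 KDM3B regions overlapped an H3K9me2 region of ABsh-1 cells, whereas 0.533% of all 17638 did. The gap to the nearest was between 500 bp and 348 kb with a median of 11.8 kb, and the median over the whole list was 13.6 kb. Of the 14, 2 (14.3%) had a gap under 1 kb, the window at the SOX9 TSS and 1 at the 3′ end of PROM1, beside 11.5% of all.

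GC content moved with the H3K9me2 counts. In 5 equal groups of protein-coding genes ordered by the GC content of the 5 kb on either side of the canonical TSS, the share with an H3K9me2 region of ABsh-1 cells within 5 kb was 15.6%, 27.2%, 41.8%, 70.6% and 91.3%. For KDM3B in Scrsh cells it was 22.8% in the lowest and 43.1% in the highest group. ASCL2 (60.2% GC), EPHB2 (56.1%) and SOX9 (54.5%) were in the highest group and all had H3K9me2 regions in ABsh-1 cells. Those regions covered 116 bases per kb of the 5-kb windows over that whole group. EPHB2, with 62.3, lay below this value, and ASCL2 (190) and SOX9 (274) lay above it. ALDH1A1 (37.3%) was in the lowest and OLFM4 (43.2%) and LGR5 (44%) in the second, and none of them had one. Of the 3 genes in the middle group, SMOC2 (47.8%) and PROM1 (46.1%) had one and CD44 (46.8%) did not. BMI1 (48.8%), in the fourth group, had none within 5 kb. The part of base composition in the H3K9me2 counts was not tested.

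**Figure D3:**
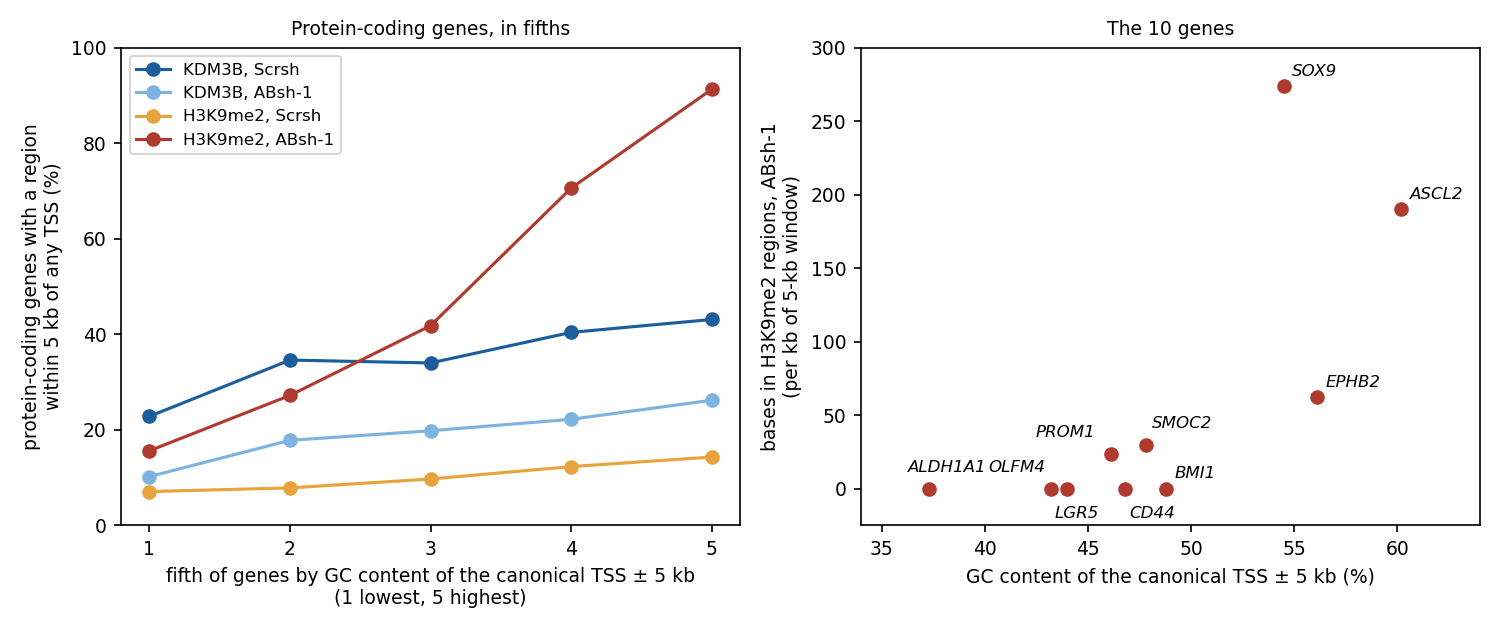
Left, percentage of protein-coding genes with a region of each list within 5 kb of any TSS, in 5 groups ordered by GC content around the canonical TSS; right, bases in H3K9me2 regions of ABsh-1 cells per kb of the 5-kb window against GC content (%) for the 10 genes, 1 point per gene. The left line for H3K9me2 in ABsh-1 cells goes from 15.6% to 91.3%, and on the right SOX9, ASCL2 and EPHB2 lie highest.

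Covered bases of the 10 genes together were set beside those of all protein-coding genes. H3K9me2 regions of ABsh-1 cells covered 32.5 bases per kb of their 5-kb windows and 24.2 per kb of their bodies, and the values over all protein-coding genes were 29.3 and 14.5. Single genes decide on which side of these values the set falls. Without SOX9 the first value was 23.4, and without EPHB2 the second was 12.2. In Scrsh cells the H3K9me2 values of the set were 0.872 and 0, beside 0.913 and 0.649. KDM3B covered 3.1 bases per kb of the 5-kb windows in Scrsh cells and 0.364 in ABsh-1 cells, beside 4.1 and 1.66 over all genes. Within 50 kb in Scrsh cells it covered 1.19 per kb, beside 2.66. In the bodies it covered 0.917 per kb in Scrsh cells and 0.683 in ABsh-1 cells, beside 1.32 and 0.524. The body value of ABsh-1 cells thus lay above that of all genes, but without PROM1 it was 0.221. The value of 0.364 came from the single CD44 window.

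The difference in list length bears on the direction of the KDM3B counts. With only the 8046 highest-scoring KDM3B regions of Scrsh cells, the counts of Scrsh and ABsh-1 cells were 2 and 1 genes within 5 kb, but 3 and 5 within 50 kb and 1 and 2 in the body, so that the order turned in the wider windows. With canonical TSSs alone the KDM3B counts within 50 kb were 4 and 4. The H3K9me2 counts kept their order when the list of ABsh-1 cells was cut to 11645 regions, with 1 and 3 genes within 5 kb, 5 and 6 within 50 kb, and 0 and 4 in the body. Shares of all protein-coding genes with the cut lists are not given here. Neither the turned nor the kept order can therefore be called particular to these genes.

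The core sequence bound by TCF/LEF factors, CTTTGAT on either strand, was searched as a description of letters and not of binding. It occurred in none of the 14 and 8 KDM3B regions of the 10 genes, beside 2.8% and 1.78% of the 2 whole lists. It occurred in 2 of the 169 H3K9me2 regions of ABsh-1 cells, 1 at ASCL2 and 1 at EPHB2, beside 1.65% of that list, and in none of the 12 of Scrsh cells, beside 1.48%. The RefSeq promoter table (GRCh38.p14, 300 bp per promoter) matched 7 of the 10 genes with 12 promoters. One of the 12, a PROM1 promoter, held the motif, as did 2.62% of all 35116 promoters. LGR5, ASCL2 and SOX9 were not matched.

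Further genes of the same kind were counted from lists of 13 other crypt genes and 6 other cancer stem cell markers, of which 18 of 19 were matched by symbol (CD24 was not). Within 5 kb of a TSS, 8 and 5 of the 18 had a KDM3B region in Scrsh and ABsh-1 cells, and 1 and 6 had an H3K9me2 region, beside the 35%, 19.2%, 10.2% and 49.3% of all protein-coding genes given above. Regions of both antibodies, in either population, were found for 4 of the 18 and 1 of the 10 genes (SOX9), beside 21.3% of all. RNF43 and ZNRF3, which encode ubiquitin ligases that remove Wnt receptors, TNFRSF19, a TNF receptor family member, and EPHB3, a second ephrin receptor of the crypt, were the 4. EPHB3 had 2 KDM3B regions in each population and 11 H3K9me2 regions in ABsh-1 cells against 0 in Scrsh cells. ZNRF3 had 3 KDM3B regions in Scrsh cells and 0 in ABsh-1 cells, and 1 H3K9me2 region in each. TNFRSF19 had 1 region of each antibody in ABsh-1 cells and 0 in Scrsh cells. RNF43 had 1 KDM3B region in each population and 2 H3K9me2 regions in ABsh-1 cells alone. Of the 5 matched cancer stem cell markers, 4 had a KDM3B region in Scrsh cells within 5 kb (35% of all genes), and 0 had an H3K9me2 region in Scrsh cells (10.2%) or in ABsh-1 cells (49.3%). Within 50 kb, however, all 5 had an H3K9me2 region in ABsh-1 cells (75.8% of all genes) and 3 in Scrsh cells (37.3%). In the body 2 had one in ABsh-1 cells (51.2%) and 1 in Scrsh cells (15.9%). Of the 13 crypt genes, 4 had a KDM3B region in Scrsh cells and 6 an H3K9me2 region in ABsh-1 cells within 5 kb.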

How the data were processed

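The authors mapped 50-bp ChIP-seq reads to hg19 with Bowtie, used reads with 1 genomic position, kept a single read where several began at the same base, and compared ChIP with input in windows of 100 bp by a Poisson test. Their rule for a peak also asked for 2 neighbouring windows that were equally significant. The deposited lists nevertheless hold many single windows of 100 bp, and how they relate to that rule is not stated. The deposited region lists, 1 for each ChIP library, give positions and a score, a whole number of at least 2 that rises with width and whose meaning is not given in the sources used here. The 2 input libraries were not analysed here.

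The 10 genes and the further lists were chosen with earlier results of these data known. All 10 are named in the text, and of the further genes those with regions of both antibodies within 5 kb, with neighbours that hold a region counted for 1 of the 10. Gene models were those of GENCODE release 44 lifted to hg19. A region was assigned to a gene when at least 1 bp lay in the joined windows around its TSSs or in its body. GC content was read from hg19 sequence, and 18 of 20162 genes without enough known bases were left out of the GC groups. The counting was tested on simulated data. Alternatives were the region centre, the 50% of a list with the highest score, canonical TSSs, 2 kb windows, equal list lengths and merged regions. A minimum width of 200 bp and leaving out each gene were chosen after the data were seen. Python 3.11.15, numpy 2.4.6 and pandas 2.3.3 were used.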

Additional observations from a re-analysis of the deposited data

How the results depend on the processing

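The 12 counts of genes were recomputed under 54 alternatives, of which 36 stayed within 1.5 times the reported value and 18 moved further, and the 12 sums of covered bases under 1 alternative each, of which 10 stayed and 2 moved. With equal list lengths the order of the KDM3B counts of Scrsh and ABsh-1 cells turned within 50 kb (3 and 5) and in the body (1 and 2). Shares of all protein-coding genes under the alternatives are not given, so this turn cannot be called particular to these genes. Most of the moves came with fewer regions. With only the upper 50% of regions by score, the KDM3B counts in Scrsh cells were 2 genes within 5 kb and 1 in the body, those in ABsh-1 cells were 0 within 5 kb, 1 within 50 kb and 1 in the body, and H3K9me2 in Scrsh cells within 50 kb was 3. With regions of at least 200 bp, an alternative chosen after seeing the data, KDM3B in Scrsh cells was 2, 3 and 1 genes within 5 kb, within 50 kb and in the body, KDM3B in ABsh-1 cells was 0, 1 and 1, and H3K9me2 in Scrsh cells within 50 kb was 2. With equal list lengths, KDM3B in Scrsh cells was 2, 3 and 1, and H3K9me2 in ABsh-1 cells within 5 kb was 3. In a 2 kb window H3K9me2 in Scrsh cells was 0. Merging regions less than 1 kb apart raised the bases covered by H3K9me2 from 240 to 1040 within 5 kb in Scrsh cells and from 43069 to 71069 within 50 kb in ABsh-1 cells. By construction these alternatives hold fewer regions, wider regions or a narrower window. The region centre and canonical TSSs moved no count past 1.5 times. No paired analysis was possible because each group holds 1 library and no test was made. Depth is unknown.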
